A study of Mus musculus with 28 samples.

Results

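The 6 transcripts described here, *Tmem119*, *Olfml3*, *Siglech*, *Sparc*, *Crybb1* and *Slc2a5*, are widely used as a signature of homeostatic microglia. They were followed from yolk-sac macrophages (YSM) to the microglia of the adult mouse brain and ordered by the stage at which each first rose. Members were all probes listed under these symbols on the Illumina Mouse WG-6 array, 10 probes for 6 of the 10630 genes measured. *Siglech* and *Sparc* had 3 probes each and the other 4 genes 1 probe each, and all 10 probes passed the filter on dim probes.

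The mice were kept free of specific pathogens, and their strain is written C56BL/6 in the labels and C57BL/6j in the study's methods. YSM came from E10.5 embryos (4 arrays), and microglia from the brain every 2 days between E10.5 and E18.5, in newborns (P0) and in adults of 2 months, with 3 distinct arrays per stage. No agent or altered allele is named for any of these groups. The sort took Ly6C- cells with low CD45 that carried CD11b, F4/80 and CD64, and several mice of either sex were pooled for an array, so that single animals and sexes cannot be compared. Of 6 adult columns 3 repeated another adult column exactly and were counted once, which left 25 arrays, and replicate numbers below only name arrays. The p-values measure the spread between these pools.

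Microglia descend from macrophages of the yolk sac that enter the brain in the embryo, and in the healthy adult brain they hold a stable expression program called homeostatic. Transforming growth factor beta, which signals through SMAD proteins, and the myeloid factor PU.1 are known to be needed for this program. *Tmem119* encodes a membrane protein used to tell microglia from other brain macrophages. *Siglech* encodes a sialic acid-binding lectin that is also known from plasmacytoid dendritic cells, and *Slc2a5* encodes GLUT5, a fructose transporter. *Olfml3* and *Sparc* encode secreted proteins, the latter a collagen-binding matricellular protein that fibroblasts and endothelium make as well. *Crybb1* encodes a beta-crystallin, a protein best known from the eye lens.

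Because most of these genes rose over the same stages, their promoters were read for elements of these and other myeloid factors (RefSeq, GRCm38.p6, 250 bases before to 50 bases after the start, both strands). An entry was found for 5 of the 6 genes. For *Siglech* and *Crybb1* the start of the entry lay inside the annotated gene, which begins at chr7:55768154 and chr5:112254563. Part of the *Siglech* window and all of the *Crybb1* window therefore lie within the gene. The SMAD element CAGAC was present in 4 of 5 (*Siglech* 3 matches, *Crybb1* 1, *Slc2a5* 5, *Sparc* 2, *Olfml3* 0), and 49.7% of 27025 promoters hold it. The PU.1 core AGGAAG was present in 1 of 5, *Olfml3*, and 35.1% of promoters hold it. The IRF element (GAAA and GAAA with 2 bases between), the ETS-IRF composite (GGAA and GAAA with 2 bases between) and the MEF2 box (CTA and TAG with 4 bases between), which 3.49%, 2.79% and 3.7% of promoters hold, had no match in these windows, and no match overlapped one of another motif. A match describes letters and not a bound site. The 250 bases before the start are shown for the early riser *Siglech*, for *Slc2a5*, the last gene to rise and the one with most matches, and for *Olfml3*, an early riser with none. They lie at chr7:55767934-55768183 (plus strand), chr4:150119094-150119343 (plus strand) and chr3:103738002-103738251 (minus strand), 5′ to 3′, with CAGAC on either strand in capitals (2 of the 3 matches of *Siglech* and 4 of the 5 of *Slc2a5* lie wholly before the start).
Siglech: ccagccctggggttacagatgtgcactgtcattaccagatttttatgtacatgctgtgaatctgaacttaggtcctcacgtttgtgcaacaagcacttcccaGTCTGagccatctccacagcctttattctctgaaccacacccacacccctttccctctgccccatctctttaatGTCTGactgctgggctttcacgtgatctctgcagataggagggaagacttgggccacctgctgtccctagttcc
Slc2a5: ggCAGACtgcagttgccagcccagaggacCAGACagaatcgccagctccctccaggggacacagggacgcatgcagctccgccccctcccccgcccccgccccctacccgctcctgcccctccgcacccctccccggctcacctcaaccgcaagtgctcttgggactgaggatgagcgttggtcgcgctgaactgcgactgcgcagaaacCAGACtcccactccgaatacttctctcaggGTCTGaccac
Olfml3: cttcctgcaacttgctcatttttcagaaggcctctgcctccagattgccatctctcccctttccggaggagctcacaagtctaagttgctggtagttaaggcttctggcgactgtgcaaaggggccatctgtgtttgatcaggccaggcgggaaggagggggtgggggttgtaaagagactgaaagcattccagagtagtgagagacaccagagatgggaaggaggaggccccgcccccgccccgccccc

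All 8 genes that mark the sort or macrophages (*Ptprc*, *Itgam*, *Adgre1*, *Fcgr1*, *Csf1r*, *Aif1*, *Cx3cr1* and *Spi1*) were detected on all 25 arrays, and *Ly6c1* on 2. Between 13224 and 17937 probes were detected per array, and arrays of a group correlated at r = 0.964 to 0.993 over 10630 genes. The background signal of YSM arrays (63.91 to 73.41) lay below that of every brain array (108.4 to 154.6), so that array batch and tissue cannot be told apart in comparisons with YSM. Arrays from E16.5 to P0 were brighter, with a 75th percentile of 2.64 to 3.48 times background against 1.40 to 2.43 elsewhere, and its part in the changes at E16.5 and in adults was not tested. The YSM arrays also differed among themselves in yolk sac endoderm markers, with a mean log2 level over 10 genes of 6.01 on replicate 1, 10.94 on replicate 2, 8.60 on replicate 3 and 9.19 on replicate 4, against 5.18 to 6.95 at E10.5 in the brain. In mixed samples of this kind, fewer cells of a type and less RNA per cell cannot be told apart.

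The signature did not appear at once. By the first step called higher, *Tmem119*, *Olfml3*, *Siglech* and *Sparc* came first (E10.5 brain against YSM), *Crybb1* second (E12.5) and *Slc2a5* last (adult). Within the brain alone, the first step called higher was E12.5 for *Olfml3*, *Siglech*, *Sparc* and *Crybb1*, E16.5 for *Tmem119* and adult for *Slc2a5*. Each step was tested alone, and slower rises within the brain over several stages were not tested. The mean of *Tmem119* already went from 9.93 at E10.5 to 10.90 at E14.5. *Slc2a5* was detected on 0 of 3 arrays at E10.5 and on 3 of 3 at E16.5. A first rise below means the first step called higher. A gene was called at an adjusted p under 0.05 (limma's moderated test, Benjamini-Hochberg over all 10630 genes), and changes are log2 differences with the standard error after ±.

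At E10.5, 4 of the 6 genes were higher in brain microglia than in YSM and 1, *Slc2a5*, was lower, where 10% of all genes were called higher and 9.51% lower. From E10.5 to E12.5, 4 rose and none fell (*Olfml3*, *Siglech*, *Crybb1* and *Sparc*). At this step 1537 of 10630 genes were called higher and 1725 lower (30.7% in either direction, 16.2% lower). Between E12.5 and E14.5 only *Sparc* was called, higher, where 0.875% of genes were higher and 0.508% lower. The step to E16.5 raised 5 genes, all but *Slc2a5*, against 12.9% higher and 20% lower of all genes. From E16.5 to E18.5 (1.37% and 0.95%) and from E18.5 to P0 (0.047% and 0.00941%) none of the 6 was called (adjusted p = 0.568 to 0.999), although the counts over all genes at these 2 steps, 247 and 6, became 2242 and 586 with array weights. From P0 to adult 5 rose and *Crybb1* fell, where 24.2% of all genes rose and 26.9% fell.

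The median change of the 6 genes was 0.85, 1.31, 0.64, 1.62, 0.09, 0.04 and 1.32 over the 7 steps in order, and that of all genes lay between -0.08 and 0.01. Scaling arrays to their 75th percentile moved the median of all genes to -0.18 at E12.5, -0.29 at E16.5 and 0.11 in adults, and the share of calls that were higher from 47.1% to 25.2%, from 39.3% to 20.6% and from 47.3% to 58.3%. Under that scaling the 21 calls of these 6 genes were all kept, in the same direction.

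**Figure D1:**
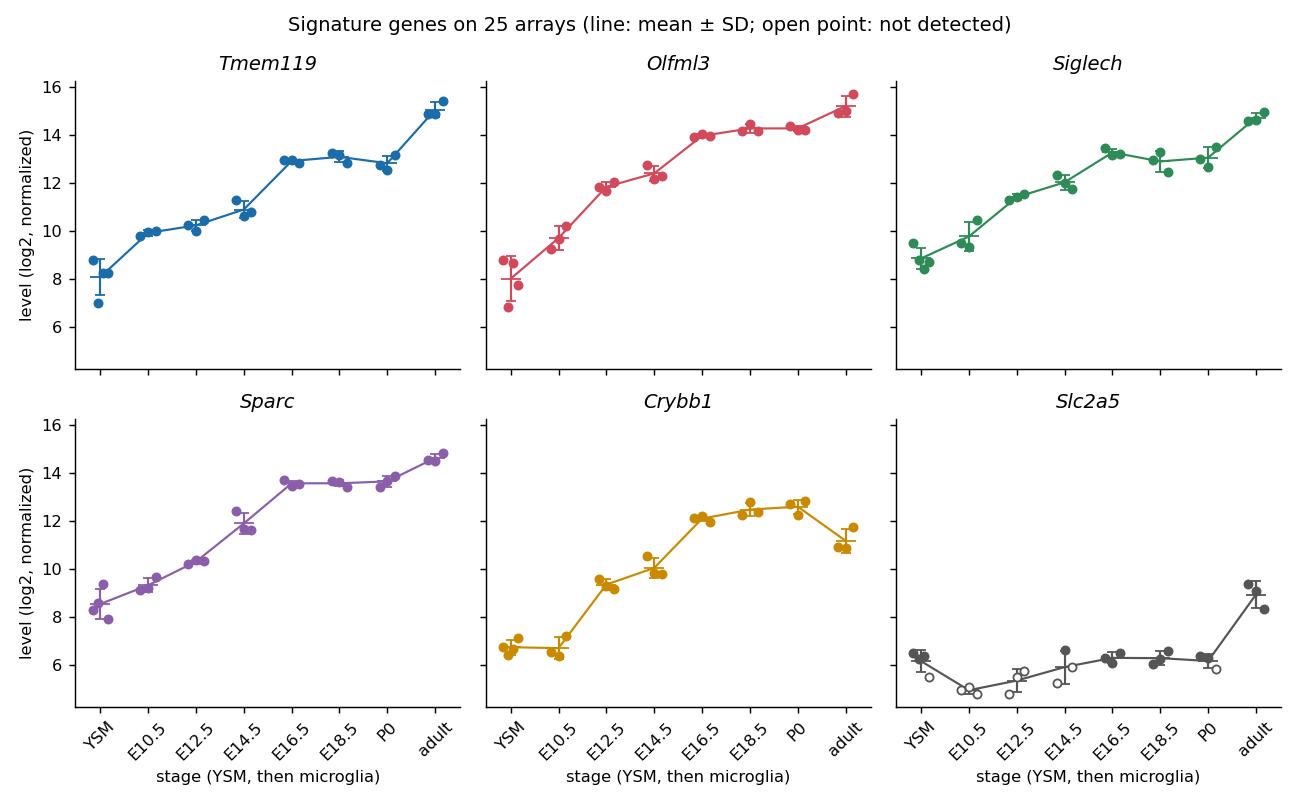
Normalized log2 level of each signature gene (y axis) on the 25 arrays, by stage (x axis). Points are arrays (open where the probe was not detected), horizontal marks group means, joined by a line, and bars the SD over 4 YSM arrays or 3 arrays of microglia. *Slc2a5* stays near or below background until the adult stage, while *Crybb1* is highest at P0, with a mean of 12.60, and lower in adults, with a mean of 11.19.

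*Tmem119*, the membrane protein, stood at log2 levels of 8.81, 7.03, 8.26 and 8.25 on the 4 YSM arrays and at 9.80, 9.97 and 10.01 on the 3 brain arrays of E10.5. The groups did not overlap, and the change was 1.84 ± 0.28 (adjusted p = 0.000239). The next 2 steps were smaller. The levels were 10.25, 10.02 and 10.46 at E12.5 and 11.28, 10.64 and 10.79 at E14.5, where the arrays of each stage lay above those of the stage before, but neither step was called (0.32, adjusted p = 0.454, and 0.66, adjusted p = 0.296). At E16.5 all 3 arrays lay well above those of E14.5, at 12.95, 12.97 and 12.85, a rise of 2.02 ± 0.30 (adjusted p = 0.000162). Values of 13.26, 13.19 and 12.84 at E18.5 and 12.77, 12.56 and 13.16 at P0 overlapped with each other. Adults, at 14.87, 14.90 and 15.42, lay above every array of P0, by 2.23 ± 0.30 (adjusted p = 3.69e-06), the largest of its steps. From YSM to adult the level rose 126-fold (6.97 ± 0.28).

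*Siglech*, the lectin, began less clearly. Its levels of 9.50, 8.81, 8.44 and 8.71 in YSM and 9.52, 9.36 and 10.46 at E10.5 overlapped, for a change of 0.91 ± 0.27 (adjusted p = 0.0231). At E12.5 the arrays stood at 11.30, 11.42 and 11.53, all above E10.5 (1.64 ± 0.29, adjusted p = 0.000287). Levels of 12.35, 12.02 and 11.74 at E14.5 did not pass (0.62, adjusted p = 0.312), although the arrays did not overlap. At E16.5 they were 13.46, 13.17 and 13.21, higher by 1.25 ± 0.29 (adjusted p = 0.00337), and they spread between 12.46 and 13.52 on the 6 arrays of E18.5 and P0 without a call. Adults held 14.58, 14.65 and 14.96, a rise of 1.67 ± 0.29 (adjusted p = 7.9e-05).

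The other 2 *Siglech* probes rose in adults as well. One, ILMN_1239190, was below background on all YSM arrays and was detected on 2 of 3 arrays at E10.5, with group means from 5.13 in YSM to 6.89, 8.83 and 9.65 at the next 3 stages and 12.68 in adults, and its first step was called higher (adjusted p = 5.58e-05). The other, ILMN_2656415, was not detected on any array before E18.5, lay between 4.70 and 5.17 in group mean until E16.5 and reached 6.80 in adults. Below background this probe gives no onset.

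*Olfml3*, one of the secreted proteins, rose in 4 steps. The YSM arrays stood at 8.81, 6.82, 8.70 and 7.76 and those of E10.5 at 9.25, 9.66 and 10.23, without overlap (1.69 ± 0.34, adjusted p = 0.00194). Its largest step came at E12.5, where levels of 11.85, 11.67 and 12.03 lay 2.13 ± 0.36 above E10.5 (adjusted p = 0.000192). At E14.5 the arrays gave 12.76, 12.18 and 12.28, a step that was not called (0.56, adjusted p = 0.501). Levels at E16.5 were nearly alike, at 13.92, 14.04 and 13.95, and higher by 1.56 ± 0.36 (adjusted p = 0.00327). They were 14.19, 14.48 and 14.17 at E18.5, 14.40, 14.22 and 14.23 at P0 and 14.92, 15.00 and 15.71 in adults. The adult step was the smallest called for this gene (0.93 ± 0.36, adjusted p = 0.0383), and the call was lost when any of the P0 arrays or adult replicate 3 was left out (adjusted p = 0.0578 to 0.166).

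*Sparc*, the matricellular protein, was called at 5 of 7 steps, the most of the 6 genes. Levels were 8.32, 8.61, 9.37 and 7.91 in YSM and 9.12, 9.22 and 9.66 at E10.5, which overlapped through YSM replicate 3 (0.78 ± 0.25, adjusted p = 0.0319). That array was also the highest of the YSM group in fibroblast and mural cell markers, with a mean log2 level over 10 genes of 8.68 against 5.56, 7.90 and 6.29 on the others, and their part in its *Sparc* level was not tested. Levels of 10.22, 10.38 and 10.35 at E12.5 lay above all arrays of E10.5 (0.98 ± 0.26, adjusted p = 0.00786). At E14.5, where no other gene of the 6 passed, they reached 12.42, 11.67 and 11.63 (1.59 ± 0.26, adjusted p = 0.00301). They were 13.70, 13.48 and 13.55 at E16.5 (1.67 ± 0.26, adjusted p = 0.00022), and between 13.41 and 13.87 on the 6 arrays of E18.5 and P0. Adult arrays stood at 14.55, 14.51 and 14.84, higher by 0.97 ± 0.26 (adjusted p = 0.00444).

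Its probes differed at the start as well. Probe ILMN_3059326 was called at the first step (1.23, adjusted p = 0.000299) and ILMN_1243212 was not, with the opposite sign (-0.25, adjusted p = 0.663), nor was the latter at E12.5 (0.67, adjusted p = 0.198). All 3 probes were called higher at E14.5, E16.5 and in adults.

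*Crybb1*, the crystallin, was the only gene of the 6 that was called lower in adults. It was detected on every array, at 6.77, 6.41, 6.68 and 7.16 in YSM and 6.55, 6.37 and 7.22 at E10.5, groups that overlapped (-0.04 ± 0.25, adjusted p = 0.94, 95% interval -0.56 to 0.48). At E12.5 the arrays jumped to 9.60, 9.29 and 9.19, a rise of 2.65 ± 0.27 (adjusted p = 1.1e-06). They were 10.53, 9.84 and 9.79 at E14.5, not called (0.69, adjusted p = 0.209), and 12.14, 12.20 and 11.98 at E16.5, called at 2.05 ± 0.27 (adjusted p = 6.02e-05). The highest levels followed around birth, with 12.25, 12.80 and 12.40 at E18.5 and 12.72, 12.27 and 12.83 at P0. Adult arrays stood at 10.92, 10.87 and 11.77, all below P0, by -1.42 ± 0.27 (adjusted p = 0.00019), and above E14.5.

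*Slc2a5*, the fructose transporter, was near background for most of development. It was detected on 3 of 4 YSM arrays (6.53, 6.25, 6.39 and, not detected, 5.52), on none of the 3 arrays at E10.5 (4.96, 5.11 and 4.82) or at E12.5 (4.82, 5.50 and 5.77) and on 1 of 3 at E14.5 (5.24, 6.62 and 5.91). The step from YSM to E10.5 was called lower (adjusted p = 0.00952), but a level below background is only a bound, and this bound gave no fold over 1. From E16.5 to P0 the gene was detected on 8 of 9 arrays, at 6.04 to 6.60, and not on P0 replicate 3 (5.86), and no step was called. In adults the 3 arrays stood at 9.40, 9.09 and 8.34, far above P0 (6.39, 6.29 and 5.86), a rise of 2.77 ± 0.33 or 6.8-fold (adjusted p = 8.02e-07).

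**Figure D2:**
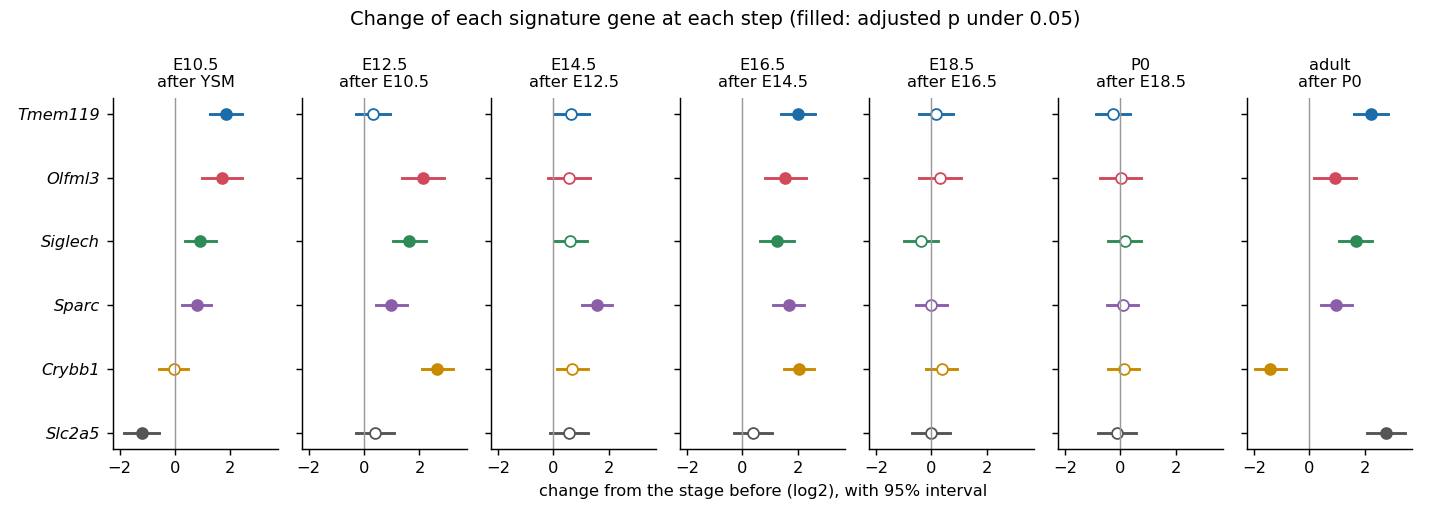
Change of each signature gene from the stage before it (x axis, log2, with the 95% interval from the model), 1 panel per step and 1 row per gene, filled where the adjusted p was under 0.05. All 6 genes are open at E18.5 and at P0, and *Crybb1* (-1.42) and *Slc2a5* (2.77) lie at opposite ends in adults.

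Measured against YSM, which all 7 stages share as reference, *Tmem119*, *Olfml3*, *Siglech*, *Sparc* and *Crybb1* were higher at every stage from E12.5, and *Slc2a5* only in adults. Up to P0 that made 5 of 6 genes at any stage, where, in order of age from E12.5, 23.9%, 29.3%, 29.7%, 30.6% and 30.3% of all genes were higher, and 6 of 6 in adults, where 33% were. At E16.5 the rise over YSM was 61.7-fold for *Olfml3*, 40.8-fold for *Crybb1*, 32.6-fold for *Sparc*, 28.5-fold for *Tmem119* and 21.3-fold for *Siglech*. In adults it was 146-fold for *Olfml3*, 67.7-fold for *Sparc*, 58.2-fold for *Siglech*, 21.7-fold for *Crybb1* and 6.84-fold for *Slc2a5*. *Slc2a5* was called lower than YSM at E12.5 (adjusted p = 0.0338), where its arrays overlapped those of YSM and its fold was at least 1.03. Over all 8 groups each of the 6 genes differed by the moderated F test (adjusted p = 4.59e-08 for *Slc2a5* and below that for the other 5), as did 91% of all genes.

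The genes also differed in how their rise was divided. Of the sum of its upward steps, *Crybb1* took 44.9% at E12.5 and 34.8% at E16.5, and no shares are given for *Slc2a5*, which was below background on most early brain arrays. *Tmem119* divided it over E10.5 (25.4%), E16.5 (27.9%) and adult (30.8%), with 4.39% at E12.5. *Olfml3* took 23.6% at E10.5, 29.7% at E12.5, 21.7% at E16.5 and 12.9% in adults, and *Sparc* took its largest shares at E14.5 (26.2%) and E16.5 (27.5%). *Siglech* took 26.2% at E12.5, 20% at E16.5 and 26.7% in adults. The share at E10.5 compares brain with yolk sac of the same embryonic day, where array batch and tissue cannot be told apart. It is part of the sum for every gene that was higher there. The group mean passed the middle between a gene's lowest and highest group mean at E12.5 for *Olfml3*, at E14.5 for *Siglech*, *Sparc* and *Crybb1*, at E16.5 for *Tmem119* and in adults for *Slc2a5*. With the middle taken over the brain stages alone, it was passed at E14.5 for *Crybb1* and in adults for *Slc2a5*. *Tmem119*, *Olfml3*, *Siglech* and *Sparc* then all passed it at E16.5.

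In the order of levels, the stages from E16.5 to P0 could not be ranked for most of the 6 genes. For *Tmem119*, *Siglech* and *Sparc* the neighbours among these 3 stages overlapped, as did E18.5 and P0 for *Olfml3* and *Crybb1*, whose levels at E16.5 lay below those of E18.5 on every array but without a call. All other neighbours in the order did not overlap for these 5 genes, except YSM and E10.5 for *Siglech*, *Sparc* and *Crybb1*. For *Slc2a5* only the adult level stood clear of its neighbour.

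The first step rested on the YSM arrays. Replicate 1, the array lowest in yolk sac endoderm markers, was the highest of the 4 for *Tmem119* (8.81), *Olfml3* (8.81) and *Siglech* (9.50), and replicate 2, the array highest in these markers, was the lowest for *Tmem119* (7.03), *Olfml3* (6.82) and *Crybb1* (6.41). Other values did not follow this order. *Siglech* was lowest on replicate 3 (8.44), *Crybb1* highest on replicate 4 (7.16), and *Sparc* highest on replicate 3 (9.37) and lowest on replicate 4 (7.91). The endoderm list as a whole had 9 of 10 genes lower at E10.5 in the brain, where 9.51% of all genes were lower. Among the 9 was the fetal serum protein *Afp*, detected on 4 of 4 YSM arrays and 1 of 3 brain arrays. The part of this list in the first step of these 6 genes was not tested. Taking replicate 1 as the only YSM array, a choice made after seeing the data that leaves 1 array assumed to vary like the other groups, none of the 6 was called higher (*Tmem119* 1.10, adjusted p = 0.0549, *Olfml3* 0.90, 0.201, *Siglech* 0.28, 0.842, *Sparc* 1.00, 0.0805) or lower (*Slc2a5* -1.61, 0.099). The calls over all genes then numbered 137 instead of 2079.

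When single arrays were left out, *Siglech* and *Sparc* lost the first step without YSM replicate 4 (adjusted p = 0.0514 and 0.102) or E10.5 replicate 3 (0.168 and 0.149), *Siglech* also without YSM replicate 3 (0.0814) and *Sparc* also without YSM replicate 1 (0.0677) or E10.5 replicate 2 (0.062). *Tmem119* and *Olfml3* kept it without any single array. Where a gene lost the first step, its first rise moved to E12.5, or to E16.5 for *Tmem119*.

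**Figure D3:**
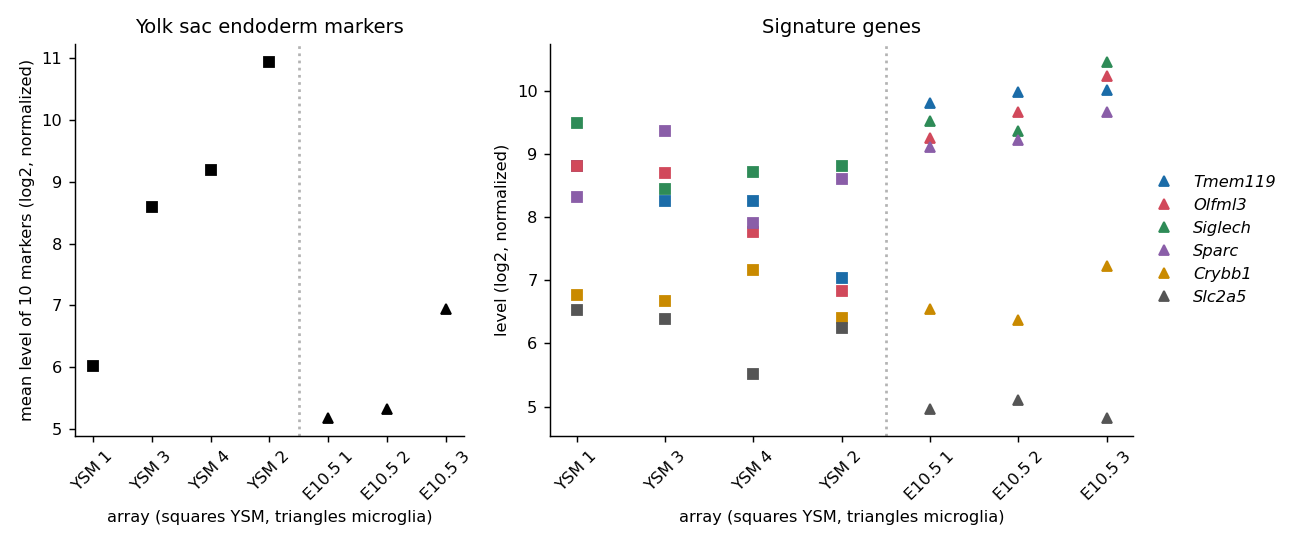
Mean log2 level of 10 yolk sac endoderm markers (left) and log2 level of each signature gene (right) on the 4 YSM arrays (squares, in order of the endoderm level) and the 3 brain arrays of E10.5 (triangles). *Tmem119* and *Olfml3* coincide on YSM replicate 1, at 8.81. YSM replicate 1, with an endoderm level of 6.01 near those of the brain arrays, carries the highest *Tmem119*, *Olfml3* and *Siglech* of the YSM group. *Sparc* is highest on YSM replicate 3 and *Crybb1* on YSM replicate 4.

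Over the 25 arrays, which share stages and processing, *Tmem119*, *Olfml3*, *Siglech* and *Sparc* correlated with each other at r = 0.955 to 0.971, *Crybb1* with them at 0.848 to 0.933 and *Slc2a5* with the other 5 at 0.354 to 0.628. On the 21 brain arrays alone *Slc2a5* reached 0.840 with *Tmem119* and 0.432 with *Crybb1*. Deviations from the group means, which leave the stages out, correlated less. Among *Tmem119*, *Olfml3*, *Siglech* and *Sparc* they ranged from 0.169 (*Tmem119* and *Sparc*) to 0.836 (*Tmem119* and *Olfml3*), and for *Crybb1* with these 4 from 0.219 to 0.595. For *Slc2a5*, which was below background on many arrays, they lay between -0.699 and -0.113.

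By the highest correlation over the 25 arrays, the genes most like *Tmem119* were *Golm1*, a Golgi membrane protein (r = 0.990), the inhibitory collagen receptor *Lair1* (0.986) and the junction protein *F11r* (0.985). *Olfml3* was followed by the ketone-body enzyme *Oxct1* (0.986), the immune checkpoint receptor *Havcr2* (0.983) and the purine receptor *P2ry13* (0.983), and *Siglech* by the inflammasome sensor *Naip5* (0.989), *Rilpl1* (0.987) and the protease inhibitor *Spint1* (0.986). Closest to *Sparc* were *Ly86* (0.991), *Plxdc1* (0.982) and the leukotriene synthase *Ltc4s* (0.982). *Crybb1*, with its adult decline, was most like *Pnpla7* (0.984), the complement chain *C1qc* (0.978) and the lysosomal enzyme *Hexa* (0.976). *Slc2a5* had looser companions, the tetraspanin *Cd53* (0.937), the Notch modifier *Mfng* (0.917) and *Armc3* (0.915), whose group mean rose from 6.83 at P0 to 9.32 in adults. For the mean of the 6 standardized genes they were *Saraf* (0.988), the lipid receptor *Trem2* (0.988) and *Rilpl1* (0.987).

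Relatives were listed for 5 of the 6 genes, all but *Tmem119*, and 20 of 45 were measured. *Cryba4*, a crystallin whose gene model overlaps that of *Crybb1* (chr5:112246492-112263625 and chr5:112254563-112269585, GRCm38.p6) but which has its own probe, shared the rise at E12.5 (2.06 ± 0.20, adjusted p = 9.16e-07) and the fall in adults (-0.84 ± 0.20, adjusted p = 0.00192). It was not called at E16.5 (0.30, adjusted p = 0.263), where *Crybb1* rose by 2.05. Of 10 crystallin relatives 4 passed the filter, and *Crybb3*, *Cryab* and *Crygn* stayed at group means of 5.18 to 6.97. *Olfml2b* rose at E12.5, E14.5, E16.5 and in adults, the last by 1.43 ± 0.18, while *Olfm1* fell below background in adults (adjusted p = 0.0156) and *Olfm4* was called at no step.

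Among 9 relatives of *Siglech* 5 were measured. *Cd33* (1.01 ± 0.19) and *Cd22*, which no brain array detected before (adjusted p = 0.00442), rose at E16.5, *Mag*, known from myelin, rose at E12.5 and in adults (1.98 ± 0.24), and *Siglec1*, the sialoadhesin of other macrophages, fell below background in adults (adjusted p = 0.000218). Of the 11 other glucose transporter genes listed with *Slc2a5*, 6 were measured and none was called higher in adults. At that step 24.2% of all genes were higher. *Slc2a3* fell at 4 steps, from a mean of 12.11 in YSM to 8.79 in adults. For *Sparc* only *Smoc1* and *Fstl1* of 7 relatives passed the filter, and neither was called higher at any step.

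Neighbouring genes were looked up after the values had been seen. *Selplg*, which encodes a selectin ligand and lies 17402 bases from *Tmem119*, was called higher at the same brain stages, E16.5 (1.26 ± 0.20) and adult (3.21 ± 0.20), and not at E10.5 (0.47, adjusted p = 0.0852). *Iscu*, 15441 bases away on the other side, was called only in adults (0.64, adjusted p = 3.72e-05). Of the neighbours of *Siglech*, *Tubgcp5* was called at no step and *Luzp2* fell in adults (adjusted p = 0.000617). *Tpst2*, 7097 bases from *Crybb1*, rose at E16.5 (0.56, adjusted p = 0.00117) and in adults (0.45, adjusted p = 0.0023), where *Crybb1* fell. *Atox1*, next to *Sparc*, was lower at E10.5 than in YSM (-0.40, adjusted p = 0.013). *Hipk1*, next to *Olfml3*, was called only in adults, where it was higher (0.74, adjusted p = 0.0163).

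Other homeostatic genes moved with the 6, in a list of 30 chosen with earlier results of these data known, of which 26 were measured. At the 7 steps 8, 19, 3, 15, 0, 0 and 17 of the 26 were higher, and 1 was lower, at E16.5. Of all genes 10%, 1537 of 10630, 0.875%, 12.9%, 1.37%, 0.047% and 24.2% were higher at these steps. The counts of 0 at E18.5 and P0 show no shared course, since few genes of any kind were called there. Their first rise fell at E10.5 for 8, at E12.5 for 13, at E14.5 for 1 (*Sall1*), at E16.5 for 1 (*Selplg*) and in adults for 2 (*Gpr165* and *Entpd1*), and *Cx3cr1* was called higher at no step. Early rises included the orphan receptor *Gpr34* (1.57 ± 0.19 at E10.5) and the receptor *Tgfbr1* (1.22 ± 0.14), and E12.5 brought the purine receptor *P2ry12* (1.51 ± 0.17). The microglial transcription factor *Sall1* rose by 1.24 ± 0.24 at E14.5 and 1.97 ± 0.24 at E16.5, the stages at which *Sparc* took its largest steps. In adults *Selplg* (3.21), *P2ry12* (1.76) and *Ctss* (1.73) rose most. Like *Crybb1*, the complement chains *C1qb* and *C1qc* had their highest mean at P0, but neither was called lower in adults.

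Genes listed as markers of other cells moved over the same steps. For comparison with the counts below, 1537 of all 10630 genes were higher at E12.5. From P0 to adult 24.2% of all genes were higher and 26.9% lower. Some were already high in YSM, with means of 13.55 for *Mrc1*, 11.85 for *Gja1* and 10.46 for *Lyve1*, against 6.11 for *Cd163*. Whether these transcripts came from other cells or from the sorted macrophages was not tested. The border macrophage list rose in 10 of 12 genes at E12.5, among them *Ms4a7* and *Lyve1* (3.24 ± 0.40), and fell in all 12 in adults, where *Mrc1* was still detected on each array (-6.28 ± 0.31) and *Lyve1*, *Cd163* and *Folr2* on none. Its mean level was 8.94 to 9.54 at E10.5, 11.01 to 12.73 on the arrays from E12.5 to P0 and 6.04 to 6.43 in adults, with E18.5 replicate 3 and P0 replicates 1 and 2 as the 3 highest. Of 8 astrocyte and radial glia genes 7 fell in adults and 1, *Slc1a3*, rose (2.49 ± 0.41), with mean levels of 8.02 to 8.20 at P0 and 6.27 to 6.66 in adults, and of 9 neuronal genes 7 fell, with mean levels of 7.68 to 8.45 at P0 and 5.21 to 5.34 in adults. Fibroblast and mural cell genes fell in 5 of 10, with mean levels of 6.44 to 7.24 at P0 and 5.19 to 5.32 in adults, while *Sparc* rose. Endothelial genes fell in 4 of 8 and rose in 1, at 6.63 to 7.61 and 5.86 to 5.96. Oligodendrocyte lineage genes rose in 3 of 7, *Mbp*, *Mag* and *Cspg4*, and fell in 3, at 8.04 to 8.24 and 7.21 to 7.33. The part of these changes in the adult rises of the 6 genes and in the fall of *Crybb1* was not tested.

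Of the plasmacytoid dendritic cell list, which matters for *Siglech*, the receptor *Ccr9* was detected on no array, *Klk1* and *Ly6d* were each detected on 2, and *Pacsin1*, *Cox6a2*, *Bst2* and *Tcf4*, which are not particular to these cells, were detected on every array. Their mean level lay between 8.47 and 10.29. From P0 to adult 1 of these 4 was called higher and 1 lower, where 24.2% and 26.9% of all genes were. The mean of *Cox6a2* went from 7.80 to 9.23 and that of *Bst2* from 10.08 to 8.98. The part of such cells in the adult rise of *Siglech* was not tested. Immediate early genes, which respond to handling of the cells, were higher in 4 of 9 at E12.5, where 1537 of 10630 genes were higher. They were higher in 4 of 9 at E16.5 (12.9% of all genes) and in 2 of 9 in adults (24.2% of all genes). Their mean levels were 10.88 to 12.33 at E14.5 and 13.10 to 13.52 at E16.5. Monocyte and neutrophil genes fell in 5 of 9 at E12.5, where 16.2% of all genes fell.

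**Figure D4:**
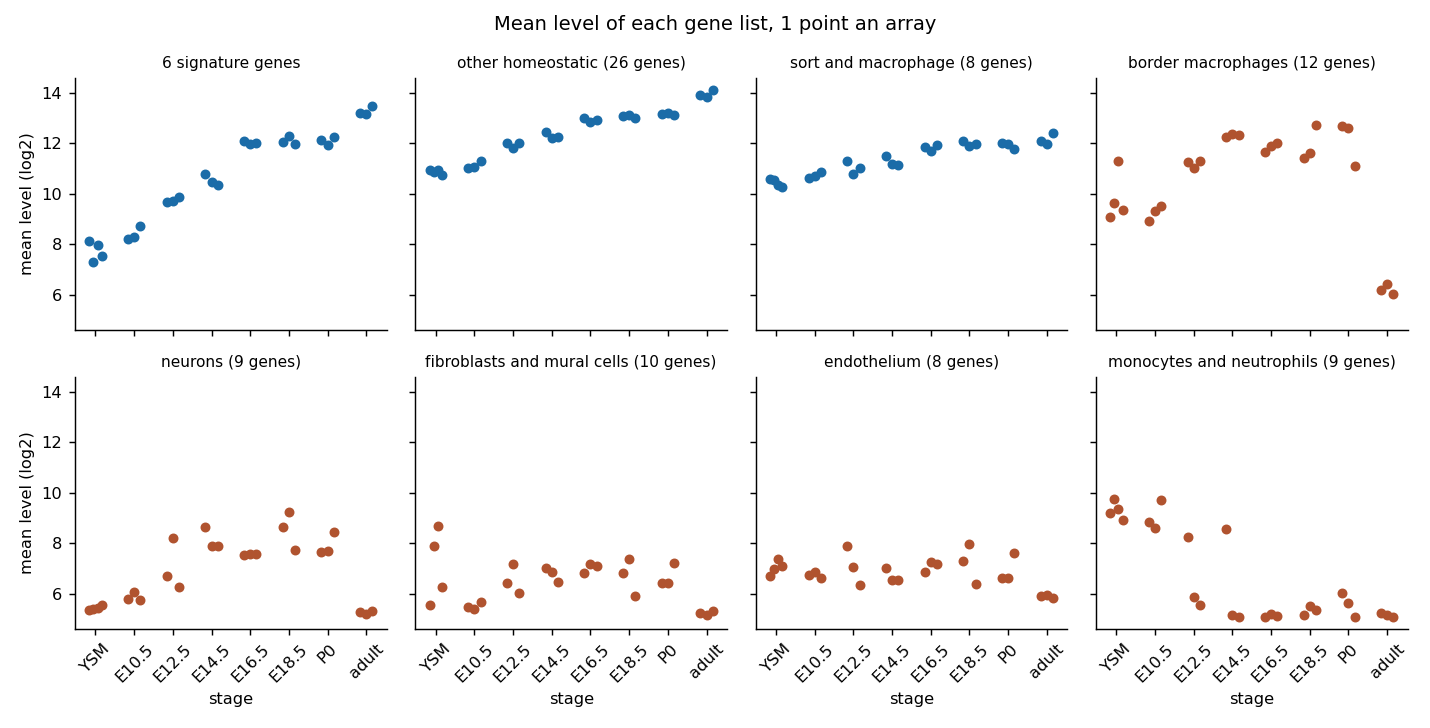
Mean log2 level of each gene list (y axis) on the 25 arrays by stage (x axis), 1 point per array, for the 6 signature genes, the other homeostatic genes, the genes of the sort and 5 lists of markers of other cells. The signature list rises from 7.32 to 8.12 in YSM to 13.17 to 13.50 in adults, while the border macrophage list falls to 6.04 to 6.43 in adults.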

How the data were processed

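Total RNA was labelled and hybridised to Illumina Mouse WG-6 version 2 arrays. The deposited intensity of each probe is linear, was exported by the authors from GenomeStudio and is neither background-subtracted nor normalized. A detection p-value against the negative controls of the array was deposited by the authors beside each signal. An intensity table that the authors quantile-normalized with lumi was used for alternatives only. The version of either tool is not given in the sources used.

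Signals were corrected with limma's neqc (normal-exponential background from the detection p-values, offset 16, quantile normalization, log2). Of 45281 probes, 19789 were kept for a detection p below 0.01 on 3 or more arrays, and each of 10630 genes was represented by its kept probe of highest mean. The 25 distinct arrays entered 1 linear model with 8 group means (limma 3.58.1, R 4.3.3, lmFit and eBayes, 17 residual degrees of freedom), with Benjamini-Hochberg adjustment within each comparison. The model was run on simulated normal values with known steps as a check of the code. These values held no differences in background, brightness or cell mixture between arrays, so the check does not bear on those. The number of arrays limits the precision.

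Alternatives covered background, normalization, filter, probe, variance model, test, replicate block and each array left out. Besides the 6 members, the text names their relatives, the 3 genes best correlated with each, up to 4 called genes of each list with the largest change at a step, and defining markers of other cell types. *Gpr165*, *Entpd1*, *Cx3cr1*, *C1qb*, *Slc1a3*, *Cspg4* and the genome neighbours were chosen after their values were seen. Members and lists were chosen with earlier results of these data known. Promoters were read with Python 3.11.15 and pandas 2.3.3.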

Additional observations from a re-analysis of the deposited data

How the results depend on the processing

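The 21 calls of the 6 genes were recomputed under 37 settings, of which 11 changed the processing or the test, 25 left out 1 array each and 1, with YSM replicate 1 as the only YSM array, was chosen after seeing the data. Of 16 calls after the first step 15 were kept under all 37, and the exception was *Olfml3* in adults (adjusted p = 0.0626 without the detection filter, 0.0685 with array weights, 0.0933 with the methods' test). None of the 5 calls at the first step was kept under all of them. *Tmem119* and *Olfml3* kept theirs under 36 of 37 and lost it only in the setting chosen after seeing the data. *Slc2a5* kept its call under 35, and *Siglech* and *Sparc* under 30 each. The first rise of *Siglech* moved from step 1 to step 2 under array weights and under the replicate block, that of *Sparc* to step 2 with the mean of the probes, and both to step 2 with the methods' test, which called 2 genes higher and 0 lower at step 1. With YSM replicate 1 alone, 0 genes were higher and 0 lower, *Tmem119* first rose at step 4 and *Olfml3*, *Siglech* and *Sparc* at step 2. Leaving out 1 array gave 2 to 4 genes higher at step 1 and a first rise at step 1 to 2 for *Siglech* and *Sparc*. The sign reversed for 2 changes by single probes, *Sparc* at E10.5 (ILMN_1243212, -0.25) and *Siglech* at E12.5 (ILMN_2656415, -0.020), and the latter carries no direction, since neither group had this probe detected. The cause of these differences was not tested.

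Under the 11 changes of processing or test, calls over all genes ranged from 1429 to 3068 at step 1 (2079 as reported), 80 to 1219 at step 3 (147), 2191 to 5867 at step 4 (3495), 154 to 2242 at step 5 (247) and 4 to 586 at step 6 (6), and at steps 2 and 7 they stayed within 1.5 times the reported count. With 1 array left out they ranged from 1241 to 2394 at step 1 (lowest without E10.5 replicate 1), 51 to 235 at step 3 (lowest without E12.5 replicate 1, highest without adult replicate 3), 74 to 321 at step 5 (lowest without E16.5 replicate 2) and 1 to 24 at step 6 (highest without P0 replicate 1). With YSM replicate 1 alone, 137 genes were called at step 1. Labels number the samples within groups, and same-numbered samples did not deviate together (median r = -0.00794 over 77 pairs, 15 over 0.1), so the number was not taken to pair them. With the replicate block on the authors' table, 1764 genes were called at step 1 and 340 at step 3, against 2163 and 213 without it.

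Levels of *Slc2a5* before E16.5 were limited by signal over background.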
